A study of Mus musculus with 21 samples.

Results

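In livers of mice that had received no dexamethasone, the glucocorticoid receptor (GR) already occupied a set of genomic sites, and those sites are described here across 18 ChIP-seq peak lists. ChIP-seq sequences the DNA that an antibody pulls down with a protein, and a peak is a region with more sequenced fragments (tags) than an input control. Peaks of the 18 lists that shared at least 1 bp were joined into 7398 sites. A site was kept when it held a peak in at least 2 of the 3 saline lists of at least 1 oxygen condition, which left 553 sites, or 7.47% of all. The sites were thus chosen by their peaks in the saline libraries, and every value of the saline libraries at them is given as a description, without a test.

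The tissue was liver of C57BL/6J mice, in 6 groups of 3 biological replicates. Normoxia groups stayed at 21% oxygen, and hypoxia groups were held at 7% oxygen for 6 h or 24 h. In each oxygen condition one group was injected with phosphate-buffered saline (PBS) and another with dexamethasone (DEX, a synthetic glucocorticoid) at 10 mg/kg, and livers were taken 2 h later. GR was precipitated with the rabbit antibody H300 from whole liver tissue, so a receptor bound in fewer cells and less receptor per cell cannot be told apart. The mice carried no named mutation, and their adrenal glands are not mentioned in the labels.

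GR rests in the cytoplasm until it binds a glucocorticoid, then enters the nucleus and binds DNA, often as a pair of receptors at a glucocorticoid response element, a short palindrome with similar arms around a spacer. Mice make their own glucocorticoid, corticosterone, whose level follows the time of day and stress. In hepatocytes GR is known for genes of glucose production, amino acid breakdown, lipid handling and the restraint of inflammation.

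The sequences that follow are promoter stretches inside sites occupied without DEX, shown because they hold, or lack, the core of a response element. RefSeq promoter windows of 300 bases (250 before and 50 after a gene start, GRCm38.p6, the assembly behind mm10) were searched for GNACA followed by any 3 bases and TGTNC (N is any base), a pattern that reads the same on both strands. Capitals mark the motif. The first 5 sites were called in all 9 DEX libraries. The last 2, which hold no match, were called in 3 PBS libraries each and in 0 DEX libraries.
Mt1, chr8:94178865-94179088, plus strand: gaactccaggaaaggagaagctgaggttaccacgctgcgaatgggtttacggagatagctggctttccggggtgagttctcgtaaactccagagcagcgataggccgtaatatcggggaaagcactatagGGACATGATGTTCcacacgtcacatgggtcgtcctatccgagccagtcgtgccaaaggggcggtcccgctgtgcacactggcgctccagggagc
Slc10a6, chr5:103629444-103629653, minus strand: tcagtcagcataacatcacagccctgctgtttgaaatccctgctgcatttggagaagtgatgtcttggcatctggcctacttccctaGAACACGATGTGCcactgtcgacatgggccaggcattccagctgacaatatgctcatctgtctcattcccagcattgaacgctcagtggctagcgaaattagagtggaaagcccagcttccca
A230028O05Rik, chr16:25059389-25059527, plus strand: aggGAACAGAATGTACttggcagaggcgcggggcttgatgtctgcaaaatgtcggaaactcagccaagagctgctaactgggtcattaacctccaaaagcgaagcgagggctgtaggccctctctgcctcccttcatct
Gm39583, chr11:16742275-16742508, minus strand: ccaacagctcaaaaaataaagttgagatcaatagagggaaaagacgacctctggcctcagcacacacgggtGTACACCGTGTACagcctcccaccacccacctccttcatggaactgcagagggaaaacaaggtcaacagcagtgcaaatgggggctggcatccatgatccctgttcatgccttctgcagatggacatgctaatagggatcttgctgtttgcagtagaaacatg
Serpinf2, chr11:75439478-75439507, minus strand: gtccaggaGAACACCGTGTGCtgcgtgtgc
Ctso, chr3:81932542-81932600, plus strand: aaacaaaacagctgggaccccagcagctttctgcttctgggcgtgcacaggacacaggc
2900052L18Rik, chr11:120231618-120231687, minus strand: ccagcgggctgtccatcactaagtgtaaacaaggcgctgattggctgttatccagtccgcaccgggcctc

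Mt1 encodes a metallothionein, a small metal-binding protein, and its motif was centred 88 bp before the start and 4 bp from the centre of the site. Slc10a6 encodes a transporter of sulphated steroids. A230028O05Rik is a long noncoding RNA gene, and the site at its promoter, 66809 bp from Lpp, was called in all 18 libraries. Gm39583 is another noncoding gene, at a site 9788 bp from Egfr. Serpinf2 encodes the plasmin inhibitor alpha-2-antiplasmin, and 30 bases are shown because the motif lies past the start, centred 8 bp into the transcript. The other 3 sites with a match read GCACAGGCTGTTC at Map3k6, GGACAGCATGTAC at the noncoding gene Gm16573 and GCACACTCTGTCC at the noncoding gene Gm35287. At these 8 sites the motif centre lay 4 to 16 bp from the centre of the site.

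In all, 43 of the 553 sites touched 51 promoter windows, and 9 of those windows (17.6%) held the motif, against 0.475% of all 32851 windows (156). The 9 windows belonged to 8 of the 33 promoter sites called in 6 or more DEX libraries, where they were 24.3% of 37 windows. The other 10 promoter sites, called in 0 to 3 DEX libraries, touched 14 windows with 0 matches. Those 14 windows had a median of 20.5 CpG dinucleotides, the 37 windows had 6 and all windows had 7. Among sites called in all 9 DEX libraries but not occupied without DEX, 1 of 24 windows held the motif (4.17%). A match describes letters and is not a measured contact, and sequence away from these windows was not used here.

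Libraries differed widely in how many of the 553 sites they called. In normoxia with PBS the 3 replicates called 360, 145 and 319 of them. After 6 h of hypoxia with PBS the numbers were 225, 499 and 520, and after 24 h they were 248, 151 and 77. The 9 DEX libraries called 461 to 520. PBS libraries thus spread more widely than DEX libraries within each oxygen condition. Normoxia PBS replicate 1 stands apart: it held 43645787 tags against 5772670 to 16500568 in the other 17 libraries, its peaks were wider (280 bp), up to 2 tags per base position were kept where the others kept 1, and 9.20% of the sites it called were among the 553. In the other 8 PBS libraries 66.4% to 100% of the called sites were.

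**Figure D1:**
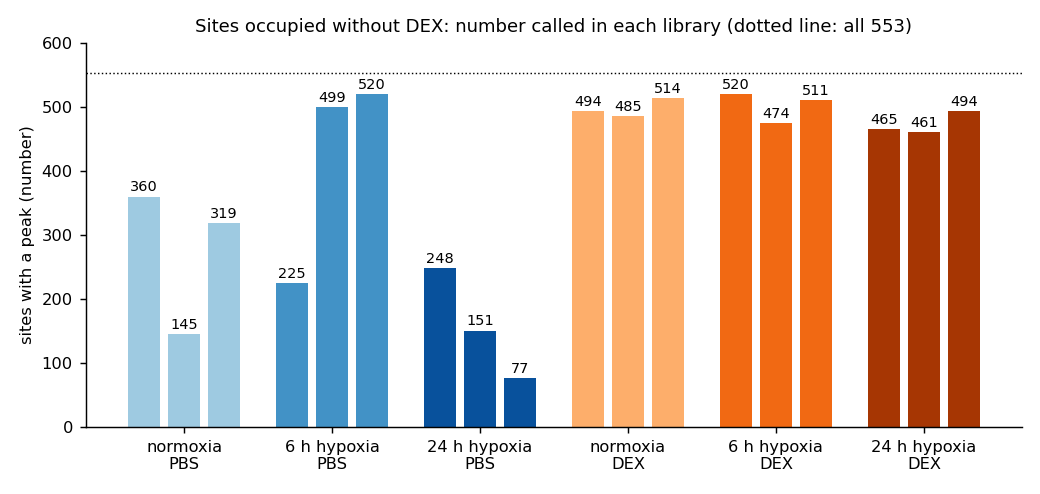
Bars give, for each of the 18 libraries, the number of the 553 sites (dotted line) that held a peak, ordered by group and replicate. The 9 PBS bars run from 77 to 520 and the 9 DEX bars from 461 to 520.

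By oxygen condition, 286 sites qualified through normoxia, 507 through 6 h and 151 through 24 h of hypoxia. The rule was met in all 3 conditions at 138 sites, in normoxia and 6 h at 105, in 6 h alone at 255, in normoxia alone at 42 and in 24 h alone at 3. Of the 255 sites that qualified through 6 h alone, 212 had their 6 h peaks in replicates 2 and 3 and none in replicate 1. Of the 42 through normoxia alone, 40 had theirs in replicates 1 and 3. Without 6 h PBS replicate 2 or 3 the rule kept 337 or 332 sites, and without normoxia PBS replicate 1 it kept 513. With a single limit of 86.6 normalized tags for every library it kept 199.

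Most sites occupied without DEX were also occupied with it. All 9 DEX libraries held a peak at 446 of the 553 sites (80.7%), against 12.6% of all 7398 sites. That background includes the 3915 peaks of normoxia PBS replicate 1 alone, and 3865 sites outside the 553 held some PBS peak. It is thus rich in sites called by few libraries. These 446 were 47.7% of the 935 sites found in all 9 DEX libraries. Another 32 were called in 6 to 8 DEX libraries, 38 in 3 to 5 and 37 in 0 to 2, among which 16 were called in none. Among the 446, the median DEX level was 146 normalized tags where 2 PBS libraries held a peak (107 sites) and 145 where 3 or 4 did (125 sites). It was 174 where 5 or 6 did (80 sites), 237 where 7 or 8 did (72 sites) and 411 where all 9 did (62 sites), so the medians were higher from 5 PBS calls on. Normalized tags are the peak caller's tag counts per 10000000 tags, and a site takes the value of its highest peak.

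**Figure D2:**
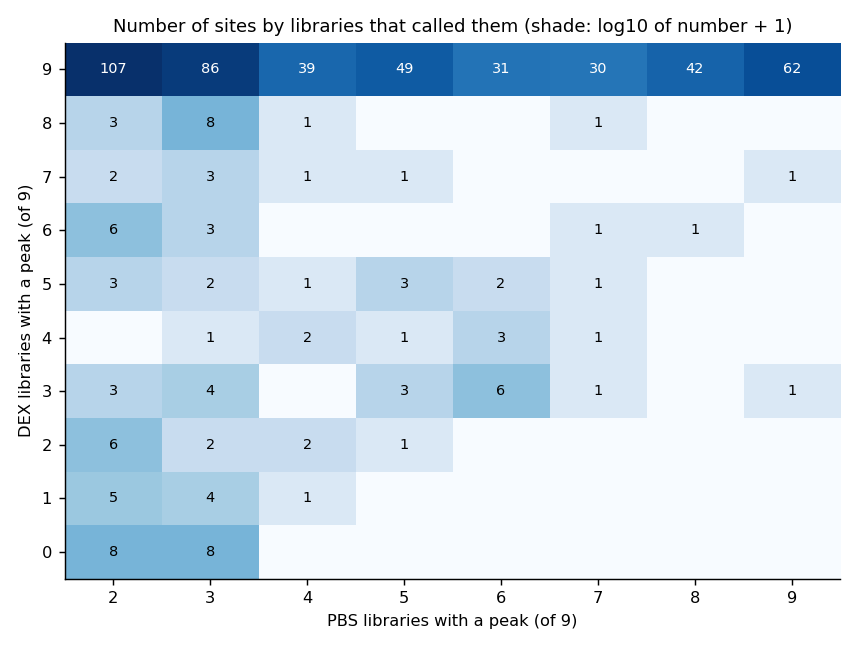
Each cell counts the sites by the number of PBS libraries (horizontal, 2 to 9) and DEX libraries (vertical, 0 to 9) that called them, with shades on a log scale. The row at 9 DEX libraries holds 446 sites, from 107 with 2 PBS calls to 62 with 9, and the row at 0 DEX libraries holds 16.

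Sites occupied without DEX took the upper ranks of the DEX lists. They made up 85% to 91% of the 100 sites with the most tags in each DEX library, and 63.8% to 70% of the top 500. Of all sites that each DEX library called, they were 13.5% to 37.7%. The rule asked for PBS peaks above a minimum score, so sites with few PBS tags could not enter. Their median over the 446 was 194 normalized tags with DEX, and that of the 489 other sites in all 9 DEX libraries was 114. The 446 lay inside the span of a protein-coding gene in 49.1% of cases and within 1 kb of a gene end in 10.8%, the 489 in 56.6% and 8.59%, and all 7398 sites in 66.9% and 39.2%. The 7398 include the many sites of normoxia PBS replicate 1, which called 3915 peaks. Of the 553 sites 170 (30.7%) had another of them within 50 kb, and 116 of the 489 (23.7%) had another of their own kind at that range.

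Input tags set some of the sites apart. The peak caller's input tags were rescaled to 10000000 tags, as the normalized tags are, and each site takes the median over its PBS peaks. These input tags numbered 0.237 to 4.99 at the 446 sites called in all 9 DEX libraries, with a median of 1.69. At the sites called in 3 to 5 and in 0 to 2 DEX libraries the medians were 13.2 and 12.2. A limit of 10 input tags, chosen after the values were seen, put 47 sites above it, of which 0 were called in all 9 DEX libraries, and 506 below it. The 47 sites had a median of 126 tags with PBS. At the 43 of them with any DEX peak the mean log2 tags with DEX minus PBS had a median of -0.15, with 14 sites above 0 and 29 below. Of the 506 sites, 494 had a DEX peak, and their median difference was 1.46, with 491 above 0. At the 446 it was 1.51, with 444 above 0. The minimum score equals 37.9 to 86.6 normalized tags in the DEX libraries and 11.5 to 57.7 in the PBS libraries. A site with PBS tags below the DEX minimum could show a DEX peak only at a higher value. PBS tags had a median of 64.7 (lowest 22.4) at the 506 and 68.8 (lowest 22.9) at the 446, so part of these signs were set in advance.

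**Figure D3:**
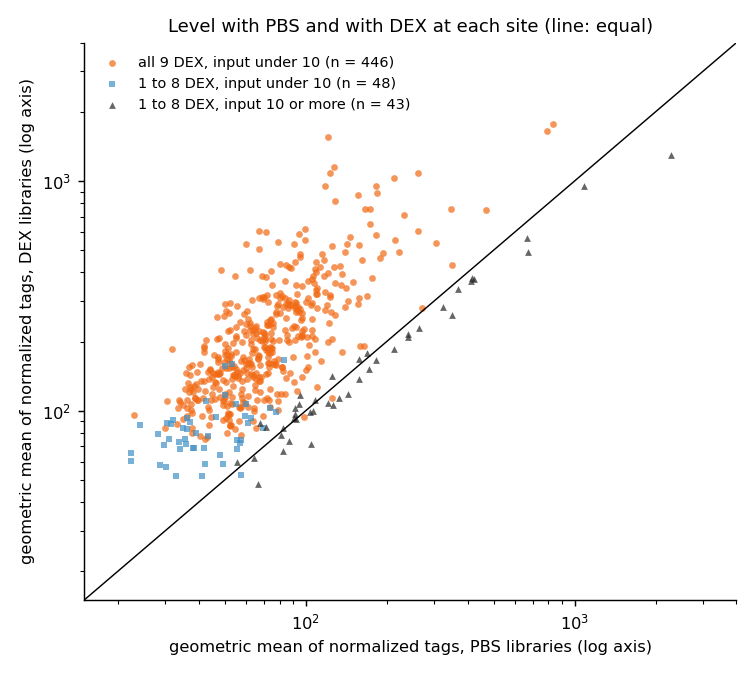
Each point is a site with at least 1 DEX peak (537 of 553), at its geometric mean of normalized tags over the PBS libraries that called it (horizontal, log axis) and over the DEX libraries that called it (vertical, log axis). The 43 sites with 10 or more input tags follow the line of equal levels, and 444 of the 446 sites called in all 9 DEX libraries lie above it. A called peak had to reach 37.9 to 86.6 normalized tags in the DEX libraries and 11.5 to 57.7 in the PBS libraries.

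The 2 exceptions among the 446 were in Retreg1, a gene of the turnover of endoplasmic reticulum (-0.15), and 50911 bp from Tafa1 (-0.08), named after their values were seen. Both were called in 2 PBS libraries only, 6 h replicates 2 and 3, with 192 and 81.9 tags in Retreg1 and 110.4 and 88.1 near Tafa1. With DEX they held 73.5 to 230.4 and 56.4 to 142 tags, ranges that contain those PBS values.

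The highest PBS tags of all came from the mitochondrial genome, beside the gene CYTB, which encodes cytochrome b of the respiratory chain. The site at positions 15455 to 15744 held 2223, 1468 and 3401 tags in normoxia with PBS, 2242, 1528 and 1508 after 6 h, and 2566, 3009 and 3918 after 24 h. With DEX it was called after 24 h only, at 955, 1671 and 1370 tags. Its input held 248 tags in the PBS peaks. The neighbouring site (15825 to 16138) held 882 tags in normoxia PBS replicate 3, 1037, 1049 and 1461 in the 24 h PBS libraries and 948 in 24 h DEX replicate 2, over an input of 209.5. Both mitochondrial sites thus belong to the 47 with high input.

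A further 8 of the 47 lay on 1 unplaced contig, where no gene is listed, with 17.7 to 64.4 input tags. Among the rest of the 47, the site with the most PBS tags lay 64833 bp from Cr2, a complement receptor gene (chromosome 1, 195241573 to 195241853). It held 435 to 949 tags over 9 PBS libraries (median 657) and 347 to 661 over 7 DEX libraries (median 490.4), with 95.1 input tags. The DEX and PBS ranges overlapped there. On chromosome 9, at 3002464 to 3002660, 2 PBS libraries of 6 h held 401 and 419 tags, no DEX library held a peak, and the input held 94.0. A site in the kinase gene Camk1d held 132 to 174 tags in 5 PBS libraries and 129 to 148 in 2 DEX libraries over an input of 23.7. Sites near the interferon gamma receptor gene Ifngr2 (input 30.5) and in Znhit1 (input 16.8) were of the same kind. Whether high input, PBS calls and missing DEX calls share a source was not tested.

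Input under 10 tags and few DEX calls went together at 31 sites, called in 0 to 5 DEX libraries. Their PBS tags were low, 22.4 to 57.6 with a median of 36.0. Where a DEX peak existed (19 sites) the difference DEX minus PBS had a median of 1.09, and 18 were above 0. The minimum score equals 37.9 to 86.6 normalized tags in the DEX libraries and 11.5 in normoxia PBS replicate 1. A called DEX peak thus had to exceed the PBS median of 36.0, so the sign was largely set in advance and shows no gain in occupancy. The site in Pank1, a gene of coenzyme A synthesis (chromosome 19, 34881205 to 34881485), held 28.9 and 85.5 tags in normoxia PBS replicates 1 and 3 and no peak with DEX. The Ctso site, at the gene of cathepsin O, a protease, and the 2900052L18Rik site printed above also had no DEX peak. The 7 promoter sites with 0 DEX calls were all called in normoxia PBS replicates 1 and 3 and not in replicate 2, and their 10 windows had a median of 23 CpG dinucleotides.

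Of the 553 sites, 64 were called in all 9 PBS libraries and 62 of those in all 9 DEX libraries as well. Highest of the 62 with PBS was a site on chromosome 2, 85979 bp from Ptpn1, a phosphatase gene that restrains insulin signalling (167844631 to 167844911). It held 126, 975 and 873 tags in normoxia with PBS, 925, 1959 and 1618 after 6 h, and 1272, 809 and 607 after 24 h. With DEX it held 1579.5, 1735 and 2019 in normoxia, 1937, 2224 and 1501 after 6 h and 1328, 1678 and 2243 after 24 h. Among PBS libraries, 6 h replicates 2 and 3 alone reached the DEX range.

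A site in Klf13, which encodes a Kruppel-like transcription factor, held 297 to 1619 tags over the PBS libraries (median 784) and 1123 to 1924 with DEX (median 1638). In Adk, the adenosine kinase gene, the ranges were 172 to 830.3 and 540.1 to 936. In Tns1, which encodes the focal adhesion protein tensin, they were 60.5 to 446 and 348 to 667. At these sites and at one near St3gal5, a gene of ganglioside synthesis (90.3 to 513 and 443 to 742), normoxia PBS replicate 1 held the lowest PBS value and 6 h PBS replicate 2 the highest, and the PBS and DEX ranges overlapped.

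**Figure D4:**
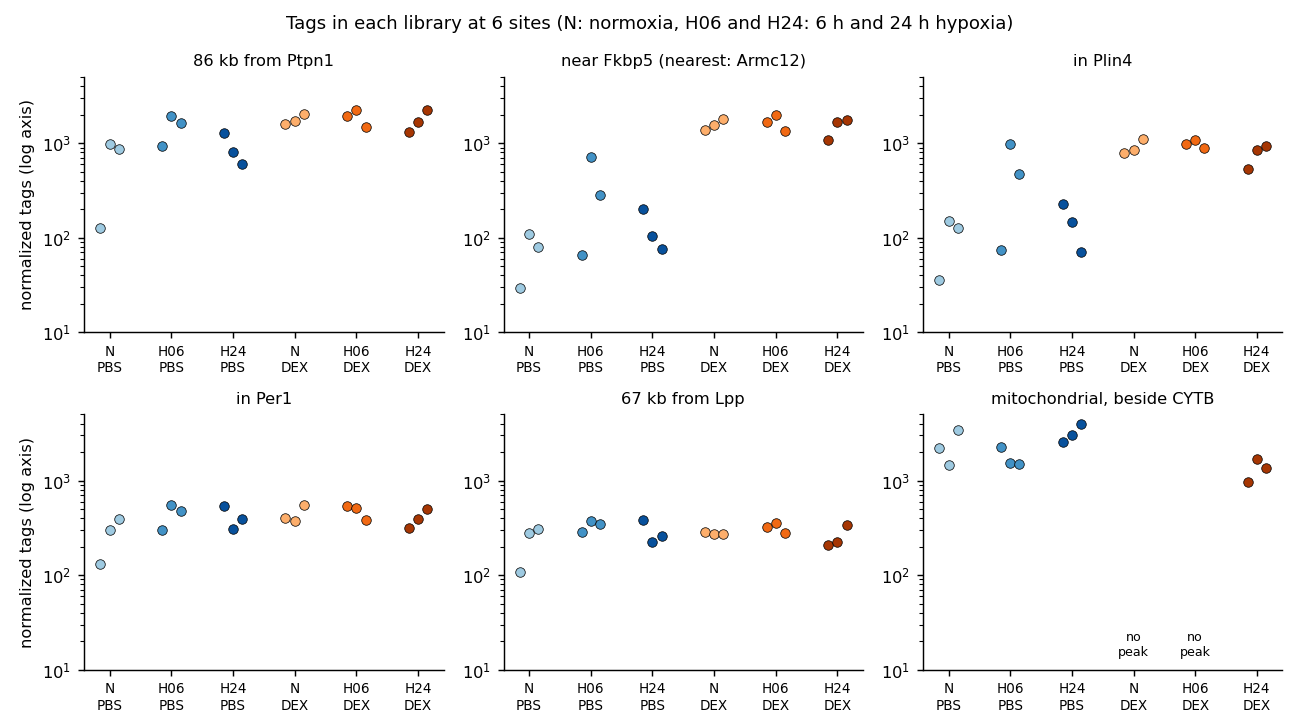
Each panel plots normalized tags (log axis) of the 3 replicates of each of the 6 groups at 1 site, with N for normoxia and H06 and H24 for 6 h and 24 h of hypoxia. At the Lpp and Per1 sites PBS and DEX points lie at like heights, near Fkbp5 the DEX points (1086 to 1994) lie above the PBS points (29.3 to 709), and the mitochondrial site has no peak in 2 DEX groups.

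The difference between DEX and PBS tags ran over a wide range at the 62 sites. On the log2 scale its median was 1.63, with 2.01 for normoxia, 1.17 for 6 h and 1.56 for 24 h. Without normoxia PBS replicate 1 the normoxia median was 1.58. All 9 DEX values lay above all 9 PBS values at 7 of the 62 sites (11.3%), and at 41 without 6 h PBS replicate 2. Within conditions, the 3 DEX values lay above the 3 PBS values at 60 sites in normoxia (96.8%), 23 after 6 h (37.1%) and 54 after 24 h (87.1%). DEX and PBS thus overlapped at the most sites after 6 h. Medians over the 62 sites were 82.05, 374.6 and 235.1 tags in 6 h PBS replicates 1, 2 and 3. They were 46.85 to 178.75 in the other PBS libraries. Whether oxygen or single libraries made the overlap was not tested.

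The smallest difference was at the site 66809 bp from Lpp, which encodes a focal adhesion protein (0.06 ± 0.21, SE of the difference, 9 libraries each). This site held 108, 280.4 and 308 tags with PBS in normoxia, 289, 372 and 349 after 6 h, and 380.3, 224 and 257 after 24 h. With DEX it held 289, 270.1 and 271 in normoxia, 323, 359 and 278 after 6 h and 207, 225 and 342 after 24 h. Outside normoxia PBS replicate 1, the 17 values lay between 207 and 380.3, with and without DEX. Per1, which encodes a repressor of the circadian clock, was next (0.30 ± 0.23), with 132 to 549.7 tags with PBS and 313 to 554 with DEX. The 6 smallest differences also held Trim2, which encodes a ubiquitin ligase (16781 bp away, 0.60 ± 0.27), Adk (0.68 ± 0.23), Noct, which encodes nocturnin (0.89 ± 0.31), and Ddc, the gene of aromatic amino acid decarboxylase (0.90 ± 0.35).

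At the other end stood the site 26765 bp from Fkbp5, whose product is a co-chaperone that makes GR bind hormone less tightly, with Armc12 as its nearest gene (3.69 ± 0.46). It held 29.3, 111 and 80 tags with PBS in normoxia, 65.1, 709 and 285 after 6 h, and 204, 105 and 76.9 after 24 h. With DEX the 9 values were 1086 to 1994, above every PBS value. A second site 32038 bp from Fkbp5 held more tags with PBS (94.9 to 709, median 369.7) and fewer with DEX (535 to 949, median 737), a difference of 1.13 ± 0.30. The pair had the same highest PBS value, 709 in 6 h replicate 2, and PBS medians of 105 and 369.7.

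In Plin4, a lipid droplet coat protein gene, the difference was 2.48 ± 0.50. The PBS values were 36.2, 149 and 127 in normoxia, 74.1, 990.2 and 469.6 after 6 h and 227, 148 and 70.6 after 24 h. One of them, 6 h PBS replicate 2, lay inside the DEX range of 529 to 1095. The other large differences were 78927 bp from Ptpn1 (2.68 ± 0.37), in Foxp1, a forkhead repressor gene (2.56 ± 0.34), 34007 bp from Gm5148 (2.47 ± 0.28) and in Cdkn1a, which encodes the cell cycle inhibitor p21 (2.38 ± 0.36).

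Several neighbourhoods held clusters of these sites. The cluster with the most sites ran over 85526 bp between Cebpb, a transcription factor gene of liver and fat, and Ptpn1, with 9 sites, of which 8 were called in all 9 DEX libraries and 3 in all 9 PBS libraries. Its median PBS tags ran from 47.8 to 925 across sites. The Zbtb16 gene, which encodes the zinc finger repressor PLZF, held 6 within 25750 bp, which were called in all 9 DEX libraries and in 5 to 9 PBS libraries. Among them the site with the most DEX tags (959.7 at the median) ranged from 16.7 to 899 with PBS and was not called in 24 h PBS replicate 3. Another Zbtb16 site, at 48737516 to 48737796, was called in all 9 PBS libraries with 38.5 to 495. Between Rxra, which encodes the retinoid X receptor, and Wdr5, 4 sites were called in all 18 libraries, with PBS medians of 95.8 to 136 and DEX medians of 379 to 472.

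Read against gene groups, the sites lay nearest to 456 of 21900 coding genes (2.08%). A list of 26 classical glucocorticoid-induced genes had 18 nearest to such a site (69.2%). Sites called in 6 or more DEX libraries but not occupied without DEX lay nearest to 13 of the 26. In the lists below, those other sites lay nearest to 4 gluconeogenesis, 9 insulin, 9 acute phase, 5 clock and 6 fatty acid genes. They also lay nearest to 6 liver factor, 7 bile acid and 6 HIF target genes. Some genes were nearest to both kinds of site. The best sites of Per1, Zfp36, Cdkn1a, Zbtb16, Plin4, Klf9 and Nfkbia were called in all 9 PBS libraries. Zfp36 encodes a protein that shortens the life of inflammatory messenger RNAs, and its site held 94.6 to 781 tags with PBS and 737 to 1383 with DEX. Nfkbia, the gene of an inhibitor of NF-kappaB, had 45.4 to 297 and 302 to 548. The site 5255 bp from Klf9, a Kruppel-like factor gene, had 63.7 to 277 and 262 to 433. Tsc22d3, which encodes the anti-inflammatory protein GILZ, had a weaker site, with 21.5 to 72.1 tags in 5 PBS libraries and 48.7 to 75.9 in 5 DEX libraries.

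The metallothionein genes Mt1 and Mt2 each had a site. At the Mt1 promoter 5 PBS libraries held 21.1, 55.1, 272, 92.4 and 59.6 tags and the 9 DEX libraries 138 to 338. The Mt2 site, 1093 bp from the gene, held 58.8 tags in normoxia replicate 3, 369.5 and 60.8 in 6 h replicates 2 and 3 and 250.4 to 535 with DEX. In both, 6 h PBS replicate 2 was the single PBS library that reached the DEX range.

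Gluconeogenesis and amino acid breakdown had 8 of 19 genes. Pck1, the gene of a key enzyme of glucose production, held 26.8 to 98 tags in 6 PBS libraries and 65.8 to 156 with DEX. The site 18399 bp from Cps1, which encodes the first enzyme of the urea cycle, held 22.7 to 159 tags in 5 PBS libraries and 184 to 308 with DEX. Near G6pc, which encodes the enzyme that releases glucose, the values were 23.1 to 124 in 5 PBS libraries and 65.8 to 168. Got1, an aspartate transaminase gene, held 22 to 301 in 4 PBS libraries and 121 to 371. Tat, the tyrosine transaminase gene, had 4 sites within 8540 bp, each called in 2 or 3 PBS libraries. Without 6 h PBS replicate 2 or 3 the count of this group was 4 or 5, and that of the classical genes 15 in either case. Without normoxia PBS replicate 1 the counts were 8 and 18.

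Of 20 insulin and growth signalling genes 6 were nearest to a site, namely Pik3r1, Foxo1, Foxo3, Igfbp1, Egfr and Errfi1. Foxo3, a forkhead factor gene that insulin signalling restrains, held 39.4 to 219 tags in 8 PBS libraries and 238 to 485 with DEX. Igfbp1, which encodes a binding protein of insulin-like growth factors, held 34.4 to 181 in 7 and 128 to 293. Pik3r1, the regulatory subunit gene of PI3 kinase, held 16.3 to 257 in 7 and 284 to 561. The Foxo1 site called in all 18 libraries lay 251118 bp from the gene.

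Acute phase and inflammation genes numbered 6 of 24. Lbp, which encodes a carrier of bacterial lipopolysaccharide, held 24.1 to 92.4 tags in 5 PBS libraries and 111 to 243 with DEX. Orm1, the gene of an acute phase plasma protein, held 12.4 to 73.2 in 4 and 104 to 182. The clock genes were Per1, Per2, Tef and Ciart, 4 of 19. Per2 held 24.1 to 110.4 tags in 6 PBS libraries and 72.8 to 142 with DEX. Ciart, another clock repressor gene, was called with PBS after 6 h only, at 41.5, 278 and 141 tags, and held 174 to 395 with DEX. Fatty acid oxidation and lipid droplet genes numbered 4 of 24 (Plin4, Lpin1, Bdh1 and Cpt1a), with Lpin1, a phosphatidate phosphatase gene, at 34.1 to 424 tags in 8 PBS libraries and 329 to 775 with DEX.

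Liver transcription factors and nuclear receptors had 4 of 20 genes. Nr1i2, the gene of the xenobiotic receptor PXR, was called in all 18 libraries, with 40.9 to 229.8 tags with PBS and 178 to 398 with DEX. Nr0b2, which encodes the corepressor SHP, was also the sole 1 of 18 bile acid, cholesterol and xenobiotic genes. Of 25 HIF targets (genes driven by hypoxia-inducible factors) 3 were nearest to a site. Hif3a, itself a HIF subunit gene, had 0 normoxia PBS calls, 42.8, 477 and 133 tags in the 6 h and 71.5 and 51.2 in 2 of the 24 h PBS libraries, and 397 to 778 with DEX. Bnip3, a mitophagy gene, held 27, 107 and 42.2 tags in 3 PBS libraries, and Ldha, the lactate dehydrogenase A gene, 19, 35.2 and 49.6.

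Among cell type markers, 5 of 15 hepatocyte genes were nearest to a site (Alb, Cps1, Pck1, Arg1 and Tat). The counts were 0 of 15 for Kupffer cells and leukocytes, 0 of 14 for endothelium and 0 of 16 for stellate cells and cholangiocytes. Sites called in 6 or more DEX libraries but not occupied without DEX lay nearest to 4 hepatocyte and 4 endothelial genes, and to 3.96% of all coding genes.

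PBS tags spread widely inside each oxygen condition. At the 64 sites called in all 9 PBS libraries the median per library was 47.8, 155 and 134 for normoxia, 83.3, 385 and 241 for 6 h, and 186, 118 and 86.8 for 24 h. The 3 conditions overlapped in these medians. The 3 libraries of 6 h lay above the 3 of normoxia at 4 of the 64 sites and below at 0, and those of 24 h lay above normoxia at 1 site and below at 0. The share of tags in peaks was 1.23% and 0.624% in 6 h PBS replicates 2 and 3, the libraries with the highest medians. It was 0.684% in normoxia replicate 1, the library with the lowest median, and 0.150% to 0.388% in the other 6, and its part in these levels was not tested. With each library centred on its median over these sites, the log2 difference of 6 h minus normoxia went from 0.83 to -0.16. Such centring removes a difference shared by the sites by construction, so it does not bear on the levels.

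Some sites qualified through 1 oxygen condition alone. The site 8699 bp from Gm51791 (chromosome 10, 77440884 to 77441107) had 61.9, 309.8 and 109.8 tags after 6 h with PBS and no other PBS peak. Through 24 h alone, Pitpnm2, a gene of phosphatidylinositol transfer, held 98.3 and 49.5 tags, beside 39.1 in 6 h replicate 3. Nhej1, a DNA end-joining gene, held 69.5 and 49.5 after 24 h, 15.1 in normoxia replicate 1 and 48.4 in 6 h replicate 3. Through normoxia alone, the site 72523 bp from Ly6l held 20.6, 81.9 and 60.6 tags, beside 71.5 in 24 h replicate 1. The site 51642 bp from Gclc, a gene of glutathione synthesis, held 17.4, 64.6 and 53.9 in normoxia and 77.7 in 6 h replicate 2. With DEX the Gclc site was called in 8 libraries and the other 4 in all 9. Others that qualified through 1 condition were seldom called with DEX: Pank1 in 0 libraries, a site in Duxf3 (37.8 and 44.8 tags in normoxia PBS replicates 1 and 3) in 1, the second mitochondrial site in 1, and a pair on the unplaced contig, called in all 3 PBS libraries of 6 h, in 3 and 1. Of the 42 sites that qualified through normoxia alone, 12 were called in all 9 DEX libraries and 12 in 0 to 2. Of the 255 through 6 h alone, 205 were called in all 9 and 24 in 0 to 2.

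At the edge of the rule, 143 sites had peaks in exactly 2 PBS libraries, both of 1 condition. The highest of them were the chromosome 9 site above, a site 196140 bp from Foxo1 (628 and 148 tags in 6 h replicates 2 and 3) and a site in Mgll, the gene of a lipase of monoglycerides (319.9 and 117 in the same libraries). Outside the rule, 9 sites had 1 peak in each of the 3 conditions. The highest of those were on the unplaced contig (120, 122 and 137 tags), in Gm40011 (40.6, 124 and 65.5) and near Mid1 (75.8, 38.5 and 46.1). All 9 DEX libraries called the Gm40011 site, as they did 7 of those 9 sites and 107 of the 143.

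The DEX libraries did not choose the sites, and hypoxia against normoxia was tested in them. The 935 sites called in all 9 DEX libraries were fitted with limma on log2 normalized tags, each library centred on its median, with Benjamini-Hochberg adjustment over the 935. Sites past an adjusted p of 0.05 were 3.42% of all fitted (32), with 2.03% higher and 1.39% lower in hypoxia. Of the 446 sites occupied without DEX, 9 rose and 1 fell (2.24%). At an unadjusted limma p under 0.05 there were 41 and 12 of the 446, against 136 of all 935 in either direction. The median log2 change of the 446 was 0.09, against 0.05 over all 935. Of the 489 other fitted sites, 10 rose and 12 fell at the adjusted threshold (4.50%). The PBS rule was uneven over oxygen conditions: 205 of the 446 qualified through 6 h PBS alone and 12 through normoxia PBS alone. The balance of risen and fallen sites among the 446 is thus not independent of the rule.

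Parva, which encodes a focal adhesion protein that links integrins to actin, rose most. It held 109, 68.7 and 86.7 tags in normoxia with DEX, 223, 345 and 159.9 after 6 h, and 159, 215 and 256 after 24 h. The 6 hypoxia libraries lay above all 3 normoxia libraries, and the log2 change was 1.48 ± 0.15 (SE, limma adjusted p = 6.98e-05). Without DEX, Parva was called in all 3 PBS libraries of 6 h and in 0 of 6 others.

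The other risen sites changed by 0.52 to 0.83. The site 14070 bp from Dysf, a membrane repair gene, held 126, 177 and 164 tags in normoxia, 237, 339.5 and 227 after 6 h and 165, 246 and 299.8 after 24 h (0.83 ± 0.15, limma adjusted p = 0.00871). Near Arrdc5, an arrestin-domain gene, the values were 162, 184 and 191 in normoxia, 281, 392 and 194 after 6 h and 217, 315 and 339 after 24 h (0.81 ± 0.15, limma adjusted p = 0.00912). At Arrdc5 6 of 6 hypoxia libraries were above the normoxia ones, and at Dysf 5 of 6. Bdh1, a ketone body enzyme gene (0.69 ± 0.17), Zc3h3 (0.65 ± 0.16), Chrdl2, a gene of a BMP antagonist (0.62 ± 0.12), a pair of neighbouring sites near Gm51791 (0.61 ± 0.13 and 0.60 ± 0.12) and Grik3, a glutamate receptor gene 70517 bp away (0.52 ± 0.12), made up the rest. After centring, 6 of 6 hypoxia libraries lay above the normoxia ones at each of the 9. Tpst2, a tyrosylprotein sulfotransferase gene, had 186, 187 and 128 tags in normoxia, 84.8, 128 and 63.8 after 6 h and 47.9, 73.5 and 114 after 24 h, a log2 change of -0.87 ± 0.16 (limma adjusted p = 0.00871).

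The PBS calls of these sites can be set beside their DEX changes. Of the 9 risen sites, 7 had 0 of 3 normoxia PBS calls and at least 2 of 3 after 6 h with PBS, the exceptions being Zc3h3 (2 of 3 in normoxia) and Chrdl2 (3 of 3). Tpst2 had 2 of 3 normoxia PBS calls and 0 of 6 in hypoxia. Among the 446 fitted sites, 122 had 0 normoxia and at least 2 hypoxia PBS calls, of which 7 rose and 0 fell, with a median log2 change of 0.11. Of the other 324, 2 rose and 1 fell, with a median of 0.09. The difference between these shares was not tested. The rule used these same PBS calls, and a site with 0 normoxia PBS calls could enter only through hypoxia. The PBS calls are thus no separate support for the DEX changes.

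**Figure D5:**
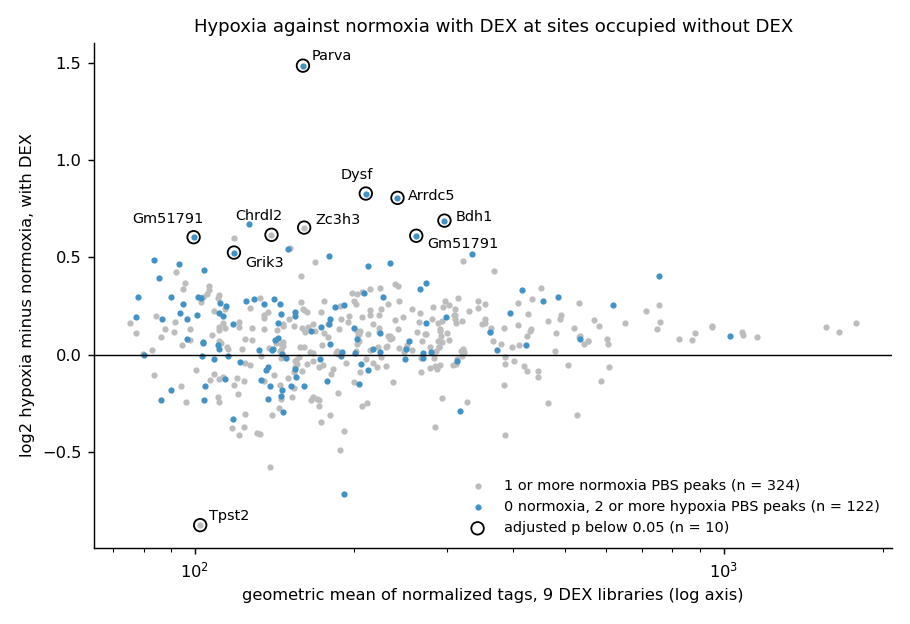
Each point is 1 of the 446 fitted sites, at its geometric mean of normalized tags over the 9 DEX libraries (horizontal, log axis) and its limma log2 change of hypoxia minus normoxia with DEX (vertical), with rings for adjusted p below 0.05. Blue points, with 0 normoxia and 2 or more hypoxia PBS calls, hold 7 of the 9 ringed points above 0, and Tpst2 is the 1 ringed point below 0. The PBS calls behind the colours were also used by the rule that chose the sites.

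These counts depend on scaling. Without centring, where the median log2 change of the 935 sites was -0.10 and not 0.05, 1 of the 446 rose and 1 fell. With the share of tags in peaks as a covariate 1 rose and 0 fell, and without normoxia DEX replicate 2 the counts were 2 and 0. Over all 935 sites the calls under these settings were 11, 3 and 5 in turn. Parva rose under each of these settings.

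By time, 6 of the 446 rose and 2 fell after 6 h (2.57% of all 935 were called, 1.71% higher and 0.856% lower), and 10 rose and 5 fell after 24 h (4.17%, 2.14% and 2.03%). Both comparisons share the normoxia libraries. With the replicate number as a block in the fit of all 3 groups, 18 rose and 11 fell after 24 h, among them all 15 called without it. Over all 935 sites the calls went from 39 to 81 with the block, so the gain was not particular to these sites. Leaving out single DEX libraries gave 1 to 13 higher and 0 to 2 lower after 6 h, and 4 to 20 and 2 to 11 after 24 h. Sites that passed at 24 h and not in the combined comparison, named after their values were seen, were in Myom3, a sarcomere gene (0.80 ± 0.16), in Tox (0.60 ± 0.14) and, lower, in Wbp1l (-0.68 ± 0.15), in Aldh16a1 (-0.64 ± 0.16) and at a pair of sites of the Cebpb to Ptpn1 cluster. Pnkd fell after 6 h (-0.60 ± 0.14).

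In the test of 24 h against 6 h, 5 of the 446 were lower and 0 higher (1.39% of all 935 were called, 1.28% lower and 0.107% higher). At an unadjusted limma p under 0.05 there were 29 lower and 26 higher of the 446, against 154 of all 935 in either direction. The site 87114 bp from Cebpb, which also touches the promoters of the noncoding genes Gm14321 and Gm32287, differed most. It held 266, 266 and 327 tags in normoxia, 208, 347 and 247 after 6 h and 72.6, 106 and 107 after 24 h (-1.21 ± 0.17, limma adjusted p = 0.00514). Its 24 h values lay below the other 6. The remaining 4 were 276580 bp from Maf, a leucine zipper factor gene (-0.90 ± 0.17), in Khk, which encodes the fructose kinase ketohexokinase (-0.89 ± 0.19), in Shld1, a DNA repair gene (-0.79 ± 0.15), and in Wbp1l (-0.68 ± 0.15). In Khk the tags were 140.3, 108 and 103 in normoxia, 169.6, 201 and 125 after 6 h and 63.2, 96.1 and 62.5 after 24 h. Of the 5, all but Wbp1l had their PBS calls in 6 h libraries only. The rule admitted those sites through 6 h, so their direction is not independent of it. Of the 489 other fitted sites, 7 were lower and 1 was higher.

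In the Cebpb to Ptpn1 cluster the site 99576 bp from Ptpn1 was lower after 24 h than in normoxia (-0.88 ± 0.16, limma adjusted p = 0.00661), as was the Cebpb site (-1.32 ± 0.17, limma adjusted p = 0.000429). The other 6 fitted sites of the cluster lay between -0.11 and 0.24 and did not pass. Leaving out single DEX libraries left 1 to 6 of the 446 lower at 24 h than at 6 h, and the Cebpb site passed in each of those 9 fits.

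The sites nearest to listed genes were also read by group, with both hypoxia times pooled. The 5 fitted clock sites had the highest median of these groups, 0.37, and lay between -0.04 and 0.51, with Tef (0.51 ± 0.17, limma adjusted p = 0.14), Ciart (0.37 ± 0.19) and Per2 (0.37 ± 0.14) above the Per1 pair, and did not pass. Tef and Ciart had PBS calls in 6 h libraries only, as did Bdh1 and Cebpb below. The rule admitted these sites through 6 h, so their direction is not independent of it. The 4 fitted sites of liver transcription factors lay between -0.72, at Cebpb, and -0.02 and did not pass. The 33 fitted sites near classical glucocorticoid-induced genes had log2 changes of -0.37 to 0.37, with a median of 0.07, and did not pass. The 8 fitted sites near gluconeogenesis and amino acid genes lay between -0.20 and 0.10, and the 17 near insulin and growth signalling genes between -0.37 and 0.27. Both fitted HIF target sites, Bnip3 and Hif3a, were at 0.24 and 0.25 and did not pass. Bdh1 was the sole listed site that passed in that comparison.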

How the data were processed

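GR peaks of 18 liver libraries were used, and the 3 inputs entered only through the peak caller. Per the submitters' processing notes, reads were processed with Trimmomatic, BWA 0.7.17 and SAMtools 1.10 on mm10, and per the file headers HOMER called peaks in each library against the input of its oxygen condition (4-fold, Poisson p 1e-04). The tags used as signal were deposited by the authors after scaling to 10000000 tags per library, and the score (minimum 50) and the fold over input (a ratio) are likewise the authors' deposited values. Because the minimum score ignores depth, it equals 11.5 to 86.6 normalized tags, depending on the library.

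Sites were built with pandas 2.3.3 in Python 3.11.15, assigned to the nearest protein-coding gene of GRCm38.p6, and tested with limma 3.58.1 in R 4.3.3, checked on simulated data. Sites were named by rule: the highest with PBS, the smallest and largest DEX differences, those seldom called with DEX, those past the limma threshold, those of 1 oxygen condition, up to 4 genes per list, mitochondrial sites and sites at the edge of the rule. Other listed genes, the promoter genes, the neighbourhoods, high-input sites other than those, and the sites that passed only in a comparison of single hypoxia times were added after their values were seen. The sites and lists were chosen with earlier results of these data known. Replicate numbers in the labels name no shared animal or day. Deviations of same-numbered DEX libraries from their group means correlated above 0.1 in all 3 pairs of normoxia and 24 h (0.16 to 0.45), so the fit with the replicate block is given beside that comparison. Alternatives covered merging, thresholds, scaling, covariates and single libraries.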

Additional observations from a re-analysis of the deposited data

Results flagged for a closer look

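The check covered 104 groups of libraries, most of them at 71 named sites and the rest of values over whole libraries. At named sites, 15 single libraries lay far from the other PBS or the other DEX libraries that called the site (all oxygen conditions together). The measure was the gap to the nearest library over the whole range. Chance would flag about 1 in 20 groups if values were normally spread and groups independent. Here tags were not on a log scale, and the same libraries recur at every site. Of the 15, 11 were 6 h hypoxia PBS replicate 2, the highest PBS library at sites whose nearest genes were Slc45a1 (752.5 normalized tags), Armc12 (708.6), Ptpn1 (553.1), Foxp1 (345.8), Plin4 (990.2), Gm5148 (289.5), Cdkn1a (732.2), Hif3a (476.5), Lpin1 (423.6), Igfbp1 (181.4) and Rxra (330.1). That library also had the largest share of tags in peaks among PBS libraries, 1.23%, and its part in these values was not tested. With DEX, 24 h replicate 1 was low at Klf13 (1122.9) and Foxp1 (346.1), and 6 h replicate 2, the shallowest library, was high at Noct (441.7) and Tat (154.2).

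Hypoxia of 24 h differed from 6 h with DEX, by limma's test of that difference, at Wbp1l (-0.68 on the log2 scale), Shld1 (-0.79), the site nearest Cebpb (-1.21), Khk (-0.89) and the site nearest Maf (-0.90).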

How the results depend on the processing

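The number of sites was 199 at the common tag threshold, 224 with 3 of 3 PBS lists required and 138 with the rule met in each oxygen condition, and 332 to 553 when single PBS libraries were left out. Of these sites, those called in all 9 DEX libraries numbered 158 at the common threshold and 260 to 451 with single libraries left out. Centring each library removes the DEX difference at the 62 sites by construction (-0.00217). By the same construction, centring left small PBS differences of 6 h minus normoxia (-0.16) and 6 h minus 24 h (-0.13). The PBS difference of 24 h minus normoxia ran from -0.10, without normoxia PBS replicate 1, to 0.59. The gluconeogenesis count ran from 4 to 8, and the count of the 62 sites without overlap from 7 to 41.

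With DEX, sites higher and lower in hypoxia numbered 1 and 1 without centring, 3 and 1 over sites in 6 or more DEX libraries, 1 and 0 with the covariate, and 2 to 13 and 0 to 2 with single libraries left out. For 6 h they numbered 1 and 0 without centring and 1 to 13 and 0 to 2 with libraries left out. For 24 h the counts were 1 and 3, and 4 to 20 and 2 to 11. For 24 h against 6 h they were 0 and 3, and 0 to 1 and 1 to 6. Counts moved by over 1.5 times without normoxia DEX replicate 2 (hypoxia, 2 and 0; 6 h, 2 and 0; 24 h, 5 and 3; 24 h against 6 h, 3 lower), without normoxia replicate 1 (6 h, 3 higher; 24 h, 18 and 11; 24 h against 6 h, 1 higher) or 3 (6 h, 13 and 1; 24 h, 20 higher; 24 h against 6 h, 1 higher), without 6 h replicate 1 (6 h, 2 and 0; 24 h against 6 h, 2 lower), 2 (6 h, 1 lower) or 3 (hypoxia, 2 lower; 6 h, 1 and 1; 24 h against 6 h, 2 lower), and without 24 h replicate 1 (6 h, 1 lower; 24 h, 6 and 2; 24 h against 6 h, 3 lower), 2 (6 h, 3 and 1; 24 h, 5 and 3; 24 h against 6 h, 1 lower) or 3 (6 h, 1 lower; 24 h, 4 and 3; 24 h against 6 h, 2 lower). The cause of these shifts was not tested. Same-numbered DEX libraries correlated at a mean of 0.23 (0.006 to 0.51, 7 of 9 pairs above 0.1) and other pairs at -0.12. Between normoxia and 24 h all 3 pairs were above 0.1, and in each of the other comparisons 2 of 3. Not every library correlated best with its own number. With the replicate block the counts were 11 and 1 for hypoxia, 11 and 2 for 6 h, 18 and 11 for 24 h, and 2 and 9 for 24 h against 6 h. Over all 935 sites the block gave 40, 40, 81 and 43 calls in that order, against 32, 24, 39 and 13 without it. No direction of the 15 tested site changes reversed, the block kept 15 of 15 calls, and 10 of 15 missed the threshold without centring. Leaving out single DEX libraries lost 1 to 10 of the 15 calls, the most (10) without normoxia DEX replicate 2, while Parva and the Cebpb site kept theirs in all 9 cases. A library calls a site only above a minimum that is not scaled to its depth, so a missing peak is not a measured absence.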
